A study of Mus musculus with 12 samples.

Results

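The genes described are the UDP-glycosyltransferases of the Ugt1a, Ugt2 and Ugt3 families and the cytosolic sulfotransferases (Sult) of mouse kidney. They were chosen by name, as the protein-coding genes of the deposited tables whose symbols start with Ugt1a, Ugt2 or Ugt3, or with Sult and a digit. This gave 42 genes of 22046 protein-coding genes (54532 genes in all), with 9 in Ugt1a, 10 in Ugt2, 2 in Ugt3 and 21 in Sult. Kidney RNA of 12 C57BL/6 mice was sequenced in 4 groups of 3, with 1 library per mouse. The β-catenin-/- mice carried floxed β-catenin alleles and Cre under the Ksp-cadherin promoter, which deletes the gene in tubule cells, from the loop of Henle onward to the collecting duct. How far it also reached the proximal tubule is described unevenly in the study, from partly to mostly. They and a wild-type group underwent unilateral ureteral obstruction (UUO), in which the left ureter is tied. The study grants that Ksp-Cre mice would have been better controls, and it lists different suppliers for the knockout and C57BL/6 mice. Cre carriage and source can therefore not be told apart from the deletion in this comparison. A CD44-/- group and its own wild-type group underwent unilateral ischemia-reperfusion injury (UIRI), in which the vessels of a kidney are clipped and released. All 12 kidneys compared here were injured, so no value below is that of a healthy kidney. The wild-type mice were males aged 6 to 8 weeks. The study's methods have UIRI mice killed the day after the uninjured kidney was removed. The age of the knockout mice, the CD44 allele and the time of collection after UUO are not given in the sources used here.

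UDP-glucuronosyltransferases sit in the membrane of the endoplasmic reticulum and join glucuronic acid, carried by UDP-glucuronate, to drugs, bilirubin, steroids and other fat-soluble compounds. Sulfotransferases of the Sult family are soluble and transfer sulfate from the donor PAPS to phenols, catecholamines and steroids. Both reactions make a charged product that transporters can move into urine or bile, and in kidney they are known mainly from the proximal tubule. The human UGT3A enzymes are known to use other sugars than glucuronic acid.

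The expression unit was FPKM (fragments scaled to gene length and to library depth), calculated by the authors, and 15940405 to 20737443 reads were assigned to genes per library. Each knockout was set against the wild-type libraries of its own table, because each table was scaled on its own. The test was limma on log2(FPKM + 1), two-sided, over genes whose mean in the table reached 0.5 FPKM, and a gene was called at a Benjamini-Hochberg adjusted p under 0.05. A log2 fold change on this scale understates the change of genes near or below 1 FPKM. Ctnnb1, which encodes β-catenin, had 84.7, 71.4 and 71.7 FPKM in β-catenin-/- kidneys, against 91.2, 86.7 and 98.5 FPKM in wild-type UUO kidneys. The groups did not overlap, and the difference did not pass the test (adjusted p = 0.189). Cd44 had 19.0, 11.97 and 13.9 FPKM in the libraries labelled CD44-/-, against 19.9, 16.3 and 17.8 FPKM in wild-type UIRI kidneys (adjusted p = 0.339). These overlapping levels do not show the deletion, so those libraries are called by their label throughout, and each direction given for them rests on that label.

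The Ugt1a genes have an unusual layout that sets what a gene table can tell about them. Each has a first exon of its own and joins it to the same downstream exons, so the 9 genes lie over one another on chromosome 1. In the GENCODE M21 annotation (GRCm38), whose coordinates and exonic lengths equal those of the tables for all 42 genes, 3 exons are held by all 9 genes. The first of the shared coding exons lies at chr1:88215044-88215175 on the plus strand. Below, 15 bases of each gene's own exon stand in lower case and the first 15 bases of that shared exon in capitals. They are shown because only the lower-case part can tell these transcripts apart at this junction, and Ugt1a7c and Ugt1a10 have the same letters there too.
Ugt1a7c: aagccactttccaagGAATTTGAAGCCTAT
Ugt1a10: aagccactttccaagGAATTTGAAGCCTAT
Ugt1a2: aagcccctctctcagGAATTTGAAGCCTAT
Ugt1a1: aagcccctatcccagGAATTTGAAGCCTAT

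Ugt1a8 has 1318 exonic bases in common with other genes and 909 of its own, and was listed at 0 reads in all 12 libraries. Reads from the shared exons were therefore not counted for every gene that holds them, so the value of a Ugt1a gene may rest mainly on its own bases. Ugt1a7c had 1915 such bases of 4219 (45.4%), made up of 917 bases at its start (chr1:88095062-88095978) and 998 bases at its 3′ end (chr1:88219005-88220002), past the end of the other 8 genes. A transcript of another Ugt1a gene that ran on past its annotated end would be counted as Ugt1a7c there. Ugt1a2 had 900 of 2211 bases of its own, Ugt1a10 had 809 of 2267, and Ugt1a1, the bilirubin-conjugating member, had 385 of 2224 (17.3%). Ugt1a6a had 2142 of 4312 (49.7%), of which only 127 and 95 lie upstream of the shared exons. The other 619, 255 and 1046 bases lie past the first shared coding exon, between chr1:88215176 and chr1:88217403. Reads there cannot be tied to a first exon.

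**Figure D1:**
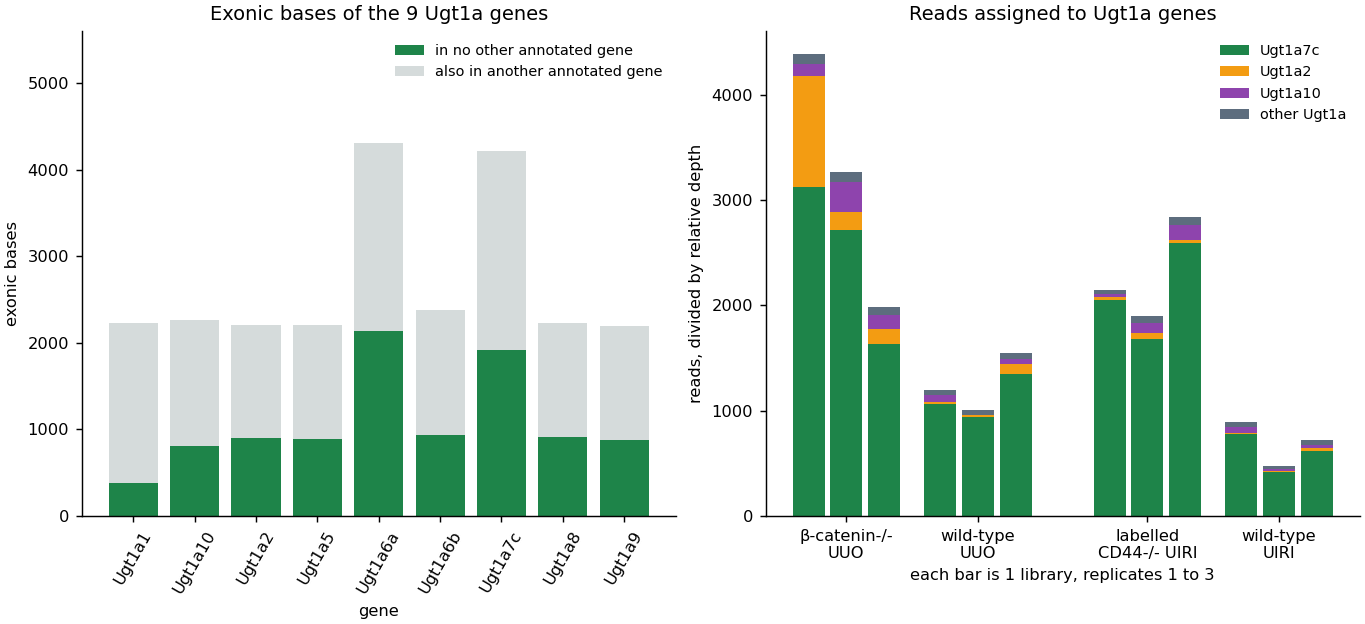
Left, exonic bases of each Ugt1a gene that lie in no other annotated gene (green) or also in another gene (grey). Right, reads assigned to Ugt1a genes in each library, divided by the library's relative depth and stacked by gene. Ugt1a7c holds most reads in all 12 libraries, and the 3 β-catenin-/- bars (1989 to 4383) stand above the 3 wild-type UUO bars (1008 to 1551).

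Promoter sequences were looked up for 36 of the 42 genes in RefSeq (GRCm38.p6), as the 250 bases before each annotated start, and a gene with several starts has several windows. The nuclear receptor motif AGGTCA, read on both strands, was in 10 of the 39 windows, against 14.0% of all 32851 RefSeq windows of the same length. A match says only that these letters are present, and several of the windows are of genes with near-identical sequence.

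Of the 42 genes, 20 passed the level filter after UUO and 17 of those 20 did so after UIRI. The other 22 were under the filter in both tables, and 11 of them had 0 reads in all 12 libraries (Sult2a2, Sult2a4, Sult2a5, Sult2a6, Sult2a7, Sult2a8, Sult3a1, Sult3a2, Ugt1a8, Ugt2a1 and Ugt2a2). Of the Sult2a enzymes, which sulfate hydroxysteroids and bile acids in liver, 6 of 8 were thus at 0 and Sult2a1 and Sult2a3 had at most 5 reads in any library. The 6, and the olfactory Ugt2a1, were not detected at this depth, at which a count of 0 allows up to 3 reads per library. Sequence sharing limits some of these zeros, since 94.5% of the 50-base windows of Ugt2a2 and 97.0% of those of Ugt2a1 occur in another gene's transcript. The share was 62.1% for Sult2a2, 59.7% for Ugt1a8, 34.5% for Sult2a5, 26.0% for Sult2a4 and 7.35% for Sult2a6. It was 0% for Sult2a7 and Sult2a8. The filter used the mean of all 6 libraries, and Sult1e1 after UUO and Ugt1a2 and Ugt2a3 after UIRI passed it only through the knockout group, while Ugt2a3 after UUO passed it only through the wild-type group. Counts over the genes that passed are therefore a description of those genes.

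Levels were concentrated in a few genes. Sult1d1, a sulfotransferase of catecholamines in mouse, had the highest mean in 3 of the 4 groups (403, 168 and 110 FPKM in β-catenin-/- UUO, wild-type UUO and wild-type UIRI kidneys), and Ugt2b38 had it in kidneys labelled CD44-/- (171 FPKM). In wild-type kidneys of both models the order of means was Sult1d1, Ugt2b37, Ugt2b38, Ugt3a2 and Sult1c2. The ranges of Sult1d1 and Ugt2b37, and of Ugt2b37 and Ugt2b38, overlapped in both wild-type groups, while Ugt2b38 and Ugt3a2 did not overlap in either. In β-catenin-/- kidneys Sult1d1 (270 to 511 FPKM) did not overlap with the next gene, Ugt3a2 (149 to 218 FPKM), and Ugt2b37 came after Ugt3a2 and Ugt2b38 (32.4 to 90.9 FPKM). In kidneys labelled CD44-/- each of the first 4 genes overlapped with its neighbour. Summed over the 42 genes, the level was 767 to 1063 FPKM in β-catenin-/- kidneys and 504 to 640 FPKM in wild-type UUO kidneys, and it was 401 to 874 FPKM in kidneys labelled CD44-/- and 311 to 426 FPKM in wild-type UIRI kidneys. Sult1d1 alone made up 20.8% to 48.1% of that sum over the 12 libraries. Levels in the 2 tables stand side by side as a description, since the tables were scaled separately.

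**Figure D2:**
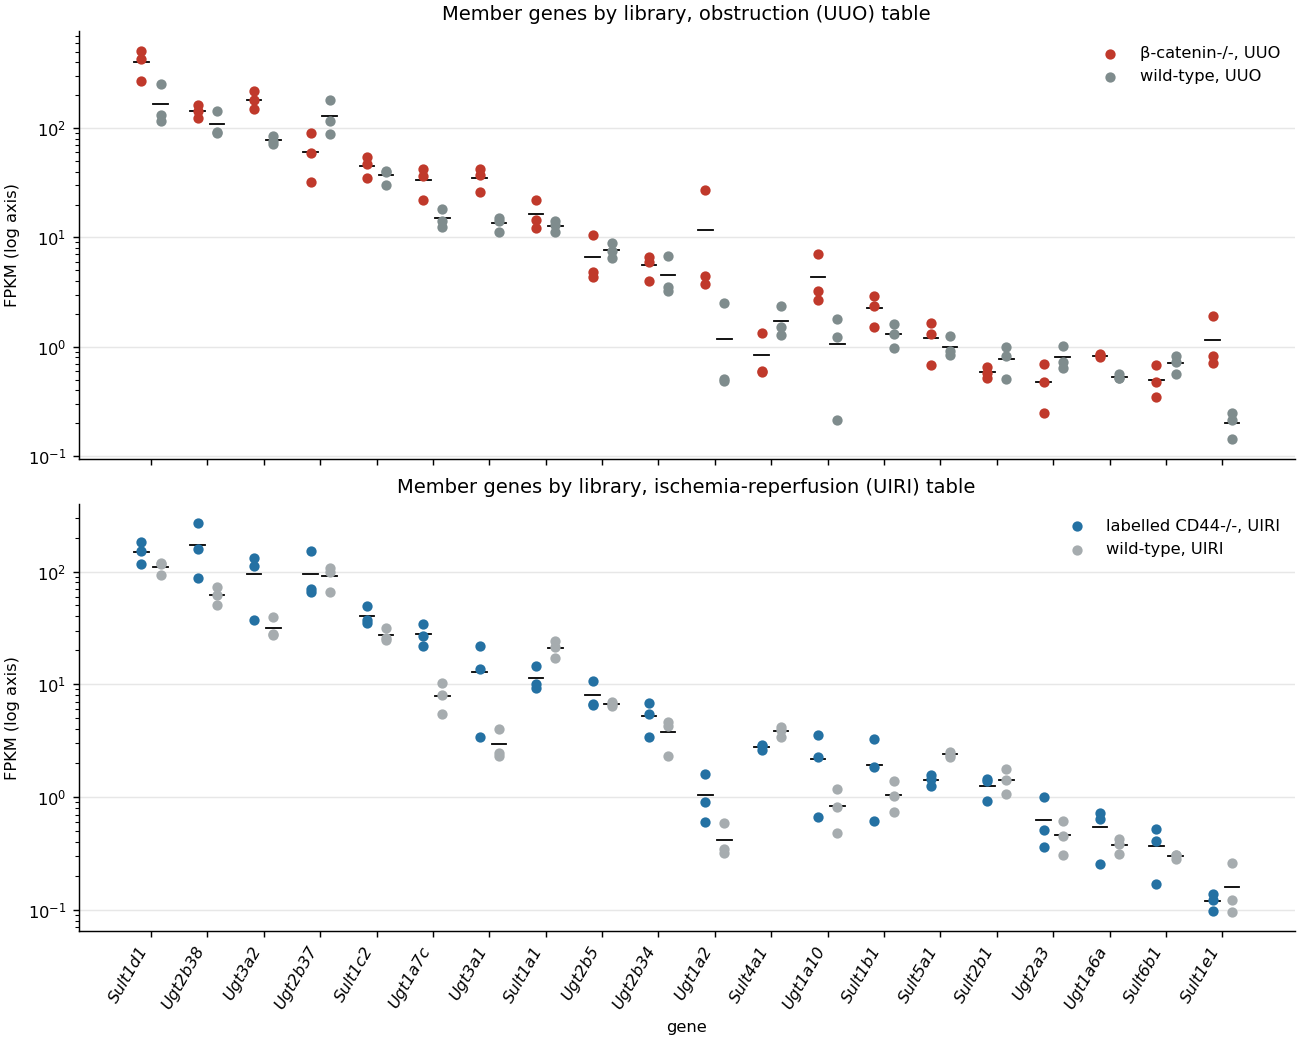
FPKM of the 20 genes that passed the filter in the UUO table, on a log axis, with 1 point per library and a line at the group mean. Knockout points stand left of wild-type points, and the pairs for Ugt3a2, Ugt3a1 and Ugt1a7c do not overlap in the upper panel.

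After UUO, 3 of the 20 tested genes rose in β-catenin-/- kidneys (Ugt3a2, Ugt3a1 and Ugt1a7c) and none fell, against 6.21% of all 16166 genes tested called higher and 4.36% called lower. Beside the 3 higher calls and 0 lower calls of limma, 8 genes were higher and 2 lower at an unadjusted p under 0.05 (17% and 12.9% of all genes tested), and voom on the recovered reads called 5 higher and 0 lower, where voom called 1192 higher and 1060 lower of all 16166 genes. The log2 fold change was positive for 14 genes and negative for 6, where 51.1% of all genes tested were positive. The median was 0.29, beside a median of 0.01 over all genes tested. The groups did not overlap for 8 genes, all higher in β-catenin-/- kidneys, where 19.6% of all genes tested were higher without overlap and 15.9% lower. The voom count, the 14 positive genes and both counts of 8 include Sult1e1, which passed the filter only through the knockout group. The 6 negative genes include Ugt2a3, which passed it only through the wild-type group. The 17 genes that did not pass had adjusted p-values of 0.0575 or more. Without wild-type UUO replicate 2 only Ugt3a2 was called (228 of all genes), and without β-catenin-/- replicate 3 the count was 5 (2449 of all genes). Rescaling each library to TPM moved the median log2 fold change of all genes by -0.17 after UUO and -0.11 after UIRI, and the share of calls that were higher was then 32.6% instead of 58.7% after UUO and 31.4% instead of 64.7% after UIRI. The same 3 genes were called after UUO on that scale. Groups did not overlap there for 7 genes of the set that were higher and 2 that were lower. Over all 16166 genes these counts were 1643 and 4384.

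Ugt3a2 and its neighbour Ugt3a1 lie side by side on chromosome 15 (chr15:9335550-9370955 and chr15:9276888-9315032, plus strand). Ugt3a2 had 179, 218 and 149 FPKM in β-catenin-/- kidneys, against 72.3, 84.6 and 75.6 FPKM in wild-type UUO kidneys. Every β-catenin-/- library was above every wild-type library, and the log2 fold change was 1.21 ± 0.17 (SE, n = 3 each, adjusted p = 0.0125). Ugt3a1 had 26.1, 42.4 and 37.4 FPKM in β-catenin-/- kidneys, against 14.05, 11.3 and 15.1 FPKM in wild-type UUO kidneys. These groups too did not overlap (log2 fold change 1.31 ± 0.20, SE, n = 3 each, adjusted p = 0.0142). The genes share 9.38% and 9.39% of their 50-base windows, mostly with each other, so a small part of their reads may not be told apart. In kidneys labelled CD44-/-, Ugt3a2 had 133, 37.1 and 112 FPKM, against 27.1, 27.7 and 39.9 FPKM in wild-type UIRI kidneys. Replicates 1 and 3 were high and replicate 2 lay within the wild-type range, and the log2 fold change of 1.38 ± 0.46 did not pass (SE, n = 3 each, adjusted p = 0.116). Ugt3a1 followed the same libraries, with 21.7, 3.38 and 13.6 FPKM in kidneys labelled CD44-/- and 2.32, 2.44 and 4.05 FPKM in wild-type UIRI kidneys (adjusted p = 0.139). Without CD44-/- replicate 2 both genes passed (adjusted p = 0.00455 for Ugt3a2 and 0.00618 for Ugt3a1). That fit called 2180 of all genes, and neither gene passed in any other of the 13 alternative fits.

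Ugt1a7c had 42.01, 36.5 and 21.9 FPKM in β-catenin-/- kidneys, against 14.3, 12.6 and 18.1 FPKM in wild-type UUO kidneys. The groups did not overlap, and the log2 fold change was 1.08 ± 0.25 (SE, n = 3 each, adjusted p = 0.0384). After UIRI it was again higher, with 26.9, 22.02 and 34.1 FPKM in kidneys labelled CD44-/- and 10.2, 5.42 and 8.11 FPKM in wild-type kidneys (log2 fold change 1.70 ± 0.24, SE, n = 3 each, adjusted p = 0.0267). It was the only one of the 42 genes called in both tables. Its call after UUO was lost without any one of 5 libraries, the exception being β-catenin-/- replicate 3, with adjusted p-values of 0.00985 to 0.123 over the 6 fits. After UIRI it was lost without any library but CD44-/- replicate 2, with adjusted p-values of 0.00886 to 0.108. As its own bases include the 3′ end of the locus, this value cannot be ascribed to the Ugt1a7c first exon.

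The 3 other tested Ugt1a genes had positive log2 fold changes after UUO, and none passed. Ugt1a6a, which conjugates planar phenols, had 0.836, 0.802 and 0.848 FPKM in β-catenin-/- kidneys, against 0.514, 0.557 and 0.519 FPKM in wild-type UUO kidneys. These low levels did not overlap (log2 fold change 0.26 ± 0.13, SE, n = 3 each, adjusted p = 0.24). As most of its own bases lie past the first shared exon, this value cannot be ascribed to a Ugt1a6a first exon. Ugt1a10 had 2.67, 7.10 and 3.23 FPKM in β-catenin-/- kidneys, against 1.77, 0.212 and 1.22 FPKM in wild-type UUO kidneys (log2 fold change 1.36 ± 0.39, SE, n = 3 each, adjusted p = 0.0657). Ugt1a2 had 27.1, 4.41 and 3.72 FPKM in β-catenin-/- kidneys, against 0.489, 0.507 and 2.53 FPKM in wild-type UUO kidneys. It had the largest log2 fold change of the 20 genes (2.17 ± 0.69, SE, n = 3 each), with replicate 1 far above the others, and it did not pass (adjusted p = 0.0875), nor in any fit with a library left out (adjusted p = 0.0661 to 0.219). That library also held 16.1 FPKM summed over 4 adipocyte markers, against at most 0.236 FPKM in the other 5 libraries of the table, and its part in the Ugt1a2 value was not tested. Summed over the 9 genes and divided by relative depth, the locus held 4383, 3266 and 1989 reads in β-catenin-/- kidneys, against 1200, 1008 and 1551 reads in wild-type UUO kidneys, a ratio of 2.56. It held 2141, 1902 and 2843 reads in kidneys labelled CD44-/-, against 887, 476 and 718 reads in wild-type UIRI kidneys, a ratio of 3.31. Neither pair of groups overlapped, and both exact permutation tests (two-sided) gave p = 0.1, the smallest that 3 against 3 allows. Ugt1a7c supplied 71.3% to 83.1% of these reads in β-catenin-/- kidneys and 86.7% to 92.7% in wild-type UUO kidneys, and it supplied 88.1% to 95.6% in kidneys labelled CD44-/- and 85.9% to 87.8% in wild-type UIRI kidneys. Its share was thus lower than in wild-type after UUO and higher after UIRI, and this difference was not tested. Ugt1a2 had 1031, 155 and 146 reads in β-catenin-/- libraries, against 21, 21 and 95 reads in wild-type UUO libraries, so 1 library held most of its reads.

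The Ugt2b genes, which conjugate steroids and drugs, lie in a cluster on chromosome 5, and none of the 5 tested Ugt2 genes was called in either table. Ugt2b38 had 124, 161 and 143 FPKM in β-catenin-/- kidneys, against 91.6, 145 and 90.3 FPKM in wild-type UUO kidneys (adjusted p = 0.243). Ugt2b37 had 32.4, 58.9 and 90.9 FPKM in β-catenin-/- kidneys, against 117, 182 and 88.2 FPKM in wild-type UUO kidneys, with replicate 3 of each group overlapping (log2 fold change -1.13 ± 0.40, SE, n = 3 each, adjusted p = 0.112). Both Ugt2b37 and Ugt2b5 passed as lower without β-catenin-/- replicate 3 (adjusted p = 0.0498 and 0.0459), and in no other of the 13 alternative fits. In kidneys labelled CD44-/-, Ugt2b38 had 266, 87.6 and 159 FPKM, against 61.4, 50.3 and 72.7 FPKM in wild-type UIRI kidneys. All 3 were above all wild-type values, and the difference did not pass (log2 fold change 1.33 ± 0.38, SE, n = 3 each, adjusted p = 0.0816). It passed in 2 of 13 alternative fits, voom and the fit without CD44-/- replicate 2 (adjusted p = 0.0427 and 0.0116). Ugt2b37 had 151, 65.6 and 69.9 FPKM there, against 99.7, 65.8 and 106 FPKM in wild-type UIRI kidneys, and its log2 fold change was -0.01 ± 0.34 (adjusted p = 0.995).

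The ratio of Ugt2b38 to Ugt2b37 within a library, which does not depend on scaling, was looked at after these values were seen and is a description. It was 3.81, 2.74 and 1.58 in β-catenin-/- kidneys, against 0.785, 0.794 and 1.02 in wild-type UUO kidneys. It was 1.77, 1.34 and 2.28 in kidneys labelled CD44-/-, against 0.616, 0.764 and 0.684 in wild-type UIRI kidneys. All 6 knockout ratios were above all 6 wild-type ratios. The genes are close copies, since 37.4% of the 50-base windows of Ugt2b38 and 18.3% of those of Ugt2b37 occur in another gene, mainly Ugt2b5, and reads from those stretches may be dropped or misplaced. Their promoter windows (chr5:87424204-87424453 and chr5:87254789-87255038, minus strand) are shown because they too are close copies, matching at 222 of 236 bases at an offset of 14 bases. The part of these windows in the ratio was not tested. The capitals mark the AGGTCA motif that both hold.
Ugt2b38: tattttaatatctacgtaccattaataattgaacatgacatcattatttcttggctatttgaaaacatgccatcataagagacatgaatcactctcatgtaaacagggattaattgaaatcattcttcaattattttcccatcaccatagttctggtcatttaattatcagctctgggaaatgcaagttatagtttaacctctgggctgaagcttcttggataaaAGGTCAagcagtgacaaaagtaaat
Ugt2b37: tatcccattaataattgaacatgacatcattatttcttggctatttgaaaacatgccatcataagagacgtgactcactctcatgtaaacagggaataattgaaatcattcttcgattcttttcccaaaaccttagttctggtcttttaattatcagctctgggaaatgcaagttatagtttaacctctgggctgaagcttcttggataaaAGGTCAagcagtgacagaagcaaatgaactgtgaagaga

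**Figure D3:**
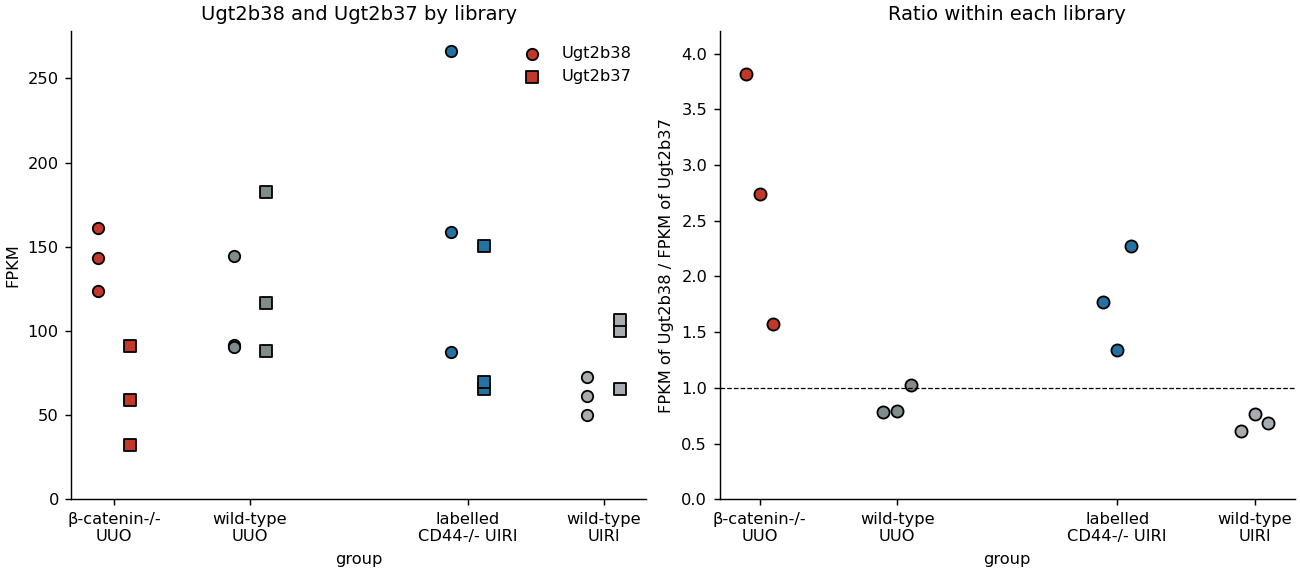
Left, FPKM of Ugt2b38 (circles) and Ugt2b37 (squares) with 1 point per library. Right, the ratio of the 2 genes within each library, with a dashed line at 1. Ratios were 1.34 to 3.81 in the 6 knockout libraries and 0.616 to 1.02 in the 6 wild-type libraries.

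Sult1d1, the most abundant gene of the set, lies at chr5:87554645-87569027 on the minus strand. It had 270, 428 and 511 FPKM in β-catenin-/- kidneys, against 116, 133 and 254 FPKM in wild-type UUO kidneys. The groups did not overlap, with replicate 3 the highest of each, and the log2 fold change of 1.30 ± 0.35 just missed the threshold (SE, n = 3 each, adjusted p = 0.0575). It passed in 3 of 13 alternative fits. These were voom, a count model run on reads recovered from the FPKM values, the fit without wild-type UUO replicate 3, and a replicate block (adjusted p = 0.0332, 0.0317 and 0.0269). In kidneys labelled CD44-/- it had 182, 116 and 151 FPKM, against 119, 93.3 and 117 FPKM in wild-type UIRI kidneys, which overlapped (adjusted p = 0.202). None of its 50-base windows occurs in another gene.

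Sult1e1, the estrogen sulfotransferase, was low throughout and rested on few reads. It had 41, 14 and 18 reads in β-catenin-/- libraries, against 6, 5 and 3 reads in wild-type UUO libraries, or 1.92, 0.708 and 0.816 FPKM against 0.249, 0.215 and 0.142 FPKM (adjusted p = 0.0666). Voom called it higher (adjusted p = 0.0422), the only 1 of the 11 alternative fits holding it to do so. As it passed the level filter only through the β-catenin-/- group, these values are a description. Sult1c2, a sulfotransferase of phenols, had 35.1, 46.7 and 54.3 FPKM in β-catenin-/- kidneys, against 40.9, 39.9 and 30.1 FPKM in wild-type UUO kidneys, and these overlapped (adjusted p = 0.371). After UIRI it had 49.9, 34.9 and 37.3 FPKM in kidneys labelled CD44-/-, against 25.8, 24.9 and 31.3 FPKM in wild-type kidneys. Those groups did not overlap, and the difference did not pass (log2 fold change 0.55 ± 0.16, SE, n = 3 each, adjusted p = 0.083).

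After UIRI, 1 of the 17 tested genes rose in kidneys labelled CD44-/- (Ugt1a7c) and 1 fell (Sult5a1), against 4.02% of all 16113 genes tested called higher and 2.19% called lower. The log2 fold change was positive for 12 genes and negative for 5, where 50.2% of all genes tested were positive. The median was 0.41, beside a median of 0.00 over all genes tested. The 12 positive genes include Ugt1a2 and Ugt2a3, which passed the filter only through the group labelled CD44-/-. Groups did not overlap for 4 genes that were higher and 3 that were lower in kidneys labelled CD44-/-, where 19.1% and 14.5% of all genes tested did so (33.5% in either direction). At an unadjusted p under 0.05, limma gave 6 genes as higher and 3 as lower, against 15.8% and 11.2% of all genes tested. The 4 and the 6 higher genes include Ugt1a2, which passed the filter only through the group labelled CD44-/-. The calls of Ugt1a7c and Sult5a1 depended on single libraries. They were lost, and no other gene was called, without wild-type UIRI replicate 1, 2 or 3 or without CD44-/- replicate 1 or 3, and without CD44-/- replicate 2 the count was 5 higher and 1 lower. The count over all genes, 1001, fell to between 1 and 10 without each of those 5 libraries and was 2180 without CD44-/- replicate 2.

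Sult5a1 (chr8:123140192-123158315, minus strand) had 1.44, 1.58 and 1.26 FPKM in kidneys labelled CD44-/-, against 2.53, 2.39 and 2.28 FPKM in wild-type UIRI kidneys. The groups did not overlap (log2 fold change -0.49 ± 0.10, SE, n = 3 each, adjusted p = 0.0417). After UUO it had 0.684, 1.29 and 1.63 FPKM in β-catenin-/- kidneys, against 1.26, 0.834 and 0.906 FPKM in wild-type kidneys (adjusted p = 0.718). Sult1a1, the main phenol sulfotransferase, had 14.6, 9.29 and 10.1 FPKM in kidneys labelled CD44-/-, against 17.1, 21.6 and 24.1 FPKM in wild-type UIRI kidneys. These groups did not overlap either, and the difference narrowly missed the threshold (log2 fold change -0.84 ± 0.19, SE, n = 3 each, adjusted p = 0.0514). Sult1a1 passed as lower in 3 of 13 alternative fits, which were rescaling to TPM, a 1 FPKM filter and voom (voom adjusted p = 0.0272). After UUO it had 12.3, 14.5 and 21.996 FPKM in β-catenin-/- kidneys, against 11.1, 12.9 and 14.2 FPKM in wild-type kidneys, and overlapped (adjusted p = 0.38).

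Whether the knockout effects differed between the tables was tested as an interaction over the 12 libraries. None of the 18 genes of the set that were tested was called, against 0.00618% of all 16193 genes (1 gene). At an unadjusted p under 0.05, limma gave Sult1a1 and Sult5a1, as against 13.6% of all genes tested. Sult1a1 had the smallest p of the set, with a difference of 1.14 ± 0.31 on the log2 scale (SE, unadjusted p = 0.00346, adjusted p = 0.20), and voom called none of the 18. Ugt1a7c differed by -0.62 ± 0.38 (adjusted p = 0.488), so its larger fold change after UIRI was not shown to differ from that after UUO. Genotype and injury model changed together between the tables, so their parts in any such difference cannot be told apart.

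**Figure D4:**
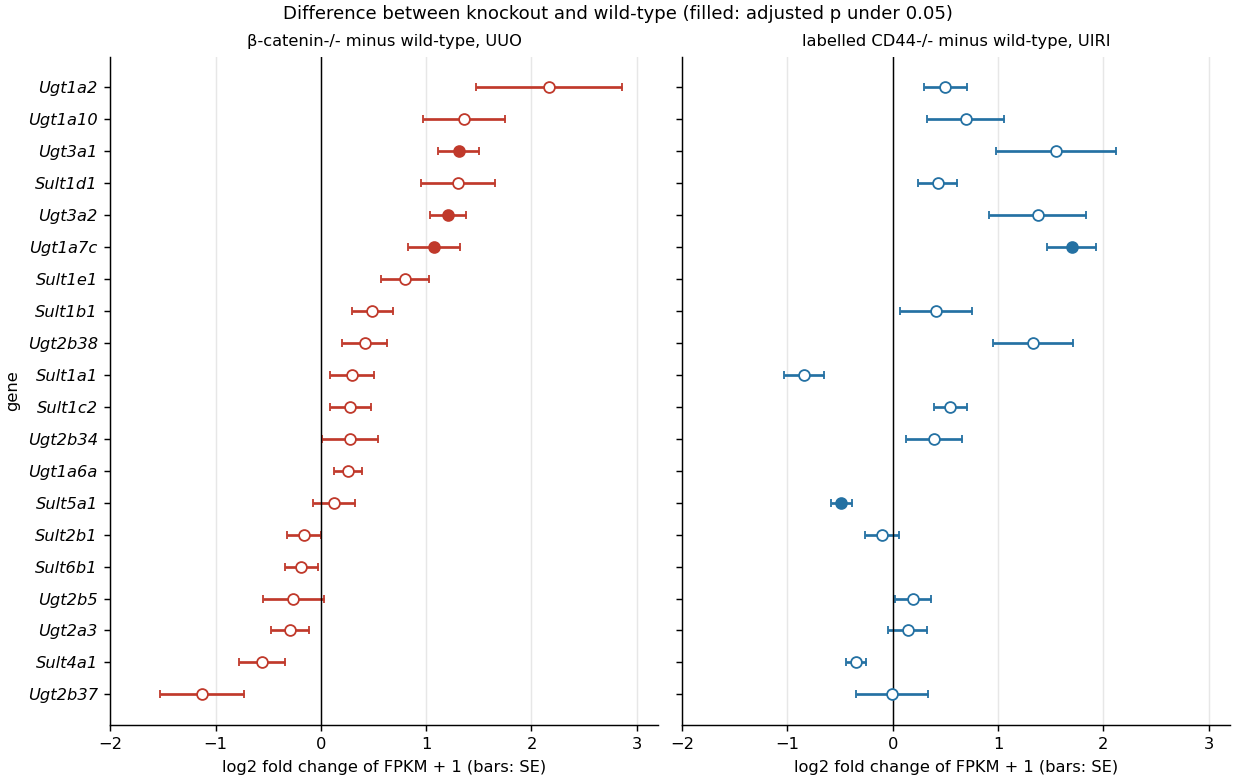
Log2 fold change of FPKM + 1, knockout minus wild-type, with SE bars, after UUO (left) and after UIRI (right). Filled points passed an adjusted p of 0.05, and 3 genes without a point on the right were under the level filter there. Ugt1a7c is filled on both sides, at 1.08 after UUO and 1.70 after UIRI.

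Genes that supply or clear the substrates of these enzymes were counted in 7 lists, on the FPKM scale alone. Over all genes tested, limma called 6.21% higher and 4.36% lower after UUO, and 4.02% higher and 2.19% lower after UIRI. These shares stand beside each count of the lists below. As the lists were chosen with earlier results of these data known, their counts are a description. After UUO, 6 of 7 genes of the glucuronate breakdown route rose in β-catenin-/- kidneys and none fell, with a median log2 fold change of 1.34. Sord, which makes fructose from sorbitol and can act on the xylitol of this route, had 309, 317 and 227 FPKM in β-catenin-/- kidneys, against 77.4, 79.5 and 86.9 FPKM in wild-type kidneys (adjusted p = 0.00613). Dcxr (xylulose reduction), Cryl1 (gulonate dehydrogenase) and Xylb (xylulokinase) also rose, by 1.36, 1.34 and 1.02 on the log2 scale (adjusted p = 0.0132, 0.0134 and 0.0245). After UIRI 3 of the 7 rose in kidneys labelled CD44-/- (Xylb, Cryl1 and Sord, by 1.24, 1.07 and 1.29) and none fell.

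Of 10 genes of sulfate uptake and PAPS supply, 2 rose after UUO and none fell. Papss2, which makes PAPS, had 80.4, 71.5 and 68.4 FPKM in β-catenin-/- kidneys, against 31.1, 28.3 and 38.6 FPKM in wild-type kidneys (log2 fold change 1.15 ± 0.15, SE, n = 3 each, adjusted p = 0.00988). Bpnt1, which breaks down the spent donor, rose by 0.63 on the log2 scale (adjusted p = 0.0181). After UIRI, Papss2, the sulfate transporter Slc26a1 and Bpnt1 rose in kidneys labelled CD44-/-, by 0.74, 1.24 and 0.62 (adjusted p = 0.0343, 0.0375 and 0.046). Of the 4 genes of UDP-glucuronate supply none passed after UUO, where Slc35d1, which carries UDP-glucuronate into the endoplasmic reticulum, and Ugdh, which makes it, had adjusted p-values of 0.05 and 0.0529. Slc35d1 rose after UIRI, with 7.38, 6.25 and 6.67 FPKM in kidneys labelled CD44-/- and 4.59, 3.77 and 4.49 FPKM in wild-type kidneys (adjusted p = 0.0348).

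Of 13 tested conjugate transporters of 14, 6 rose after UUO and 3 after UIRI, and none fell. Slc22a8, an organic anion uptake transporter, had 81.2, 47.0 and 26.8 FPKM in β-catenin-/- kidneys, against 12.6, 5.25 and 7.90 FPKM in wild-type kidneys (log2 fold change 2.39 ± 0.42, SE, n = 3 each, adjusted p = 0.0193). The apical exporter Abcc2 rose by 0.94 after UUO and 1.41 after UIRI (adjusted p = 0.019 and 0.027). Among the regulators of such genes, the nuclear receptors Hnf4a and Rxra rose after UUO and after UIRI. They come from a list of 10 regulators whose count of calls is not reported here, so they do not stand for the list. Hnf4a had 112, 112 and 113 FPKM in β-catenin-/- kidneys, against 54.8, 45.3 and 74.1 FPKM in wild-type kidneys (adjusted p = 0.0227). The xenobiotic receptor Nr1i3 stayed under the filter in both tables. Of 5 deconjugating enzymes and their activators none passed after UUO, and Arsb, a lysosomal sulfatase, rose after UIRI (adjusted p = 0.0348). Of 19 other glycosyl- and Golgi sulfotransferases, 1 rose (Gal3st1) and 2 fell (Tpst1, which sulfates tyrosines, and Ust) after UUO, and 2 rose (Chst7 and Chst11) and 1 fell (Chst15) after UIRI. Their median log2 fold changes were -0.03 and -0.01. All UIRI counts in these lists share the dependence on single libraries given above.

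Markers of cell types, chosen with the same earlier results known, were counted beside these results as a description. The shares called over all genes tested were again 6.21% higher and 4.36% lower after UUO, and 4.02% and 2.19% after UIRI. Of 12 proximal tubule markers, 7 rose after UUO and 6 after UIRI and none fell, with median log2 fold changes of 0.95 and 1.06. Their summed level was 1350 to 1698 FPKM in β-catenin-/- kidneys and 575 to 705 FPKM in wild-type UUO kidneys. It was 853 to 1570 FPKM in kidneys labelled CD44-/- and 533 to 576 FPKM in wild-type UIRI kidneys, and the library at 853 FPKM, replicate 2, was also the one with low Ugt3a1, Ugt3a2 and Ugt2b38. In whole-kidney RNA, more proximal tubule cells and more RNA per cell cannot be told apart, and the part of either in the results above was not tested. Of 7 macrophage and leukocyte markers, 6 fell after UUO and 3 after UIRI, and their sum was 369 to 437 FPKM in β-catenin-/- kidneys and 713 to 770 FPKM in wild-type UUO kidneys, and 527 to 1026 FPKM in kidneys labelled CD44-/- and 1465 to 1534 FPKM in wild-type UIRI kidneys. Fibroblast markers had a median log2 fold change of -1.03 after UUO, with 2 of 6 called lower (Pdgfrb and Col3a1), and of -0.65 after UIRI with none called. Thick ascending limb markers had medians of 0.56 after UUO, with 1 of 5 called higher (Slc12a1), and -0.55 after UIRI with none called. Collecting duct markers summed to 676, 293 and 314 FPKM in β-catenin-/- kidneys and 184 to 228 FPKM in wild-type UUO kidneys. Of these 6 markers 1 was called (Aqp2, higher) and 3 were positive, with a median log2 fold change of 0.08. After UIRI they summed to 431 to 558 FPKM in kidneys labelled CD44-/- and 275 to 559 FPKM in wild-type kidneys. None was called there, and the median was 0.40. Of 8 hepatocyte markers, 4 were tested after UUO and 3 after UIRI and none was called, though all 3 were positive after UIRI (median 0.91). Their sum was 46.1 to 76.8 FPKM in kidneys labelled CD44-/- and 21.6 to 36.8 FPKM in wild-type UIRI kidneys, mostly from the fibrinogen gene Fga. After UUO the sum was larger, at 59.2 to 166 FPKM in β-catenin-/- kidneys and 52.6 to 164 FPKM in wild-type kidneys. There 3 of the 4 tested markers were positive (median 0.52). Within the list, Alb and Ahsg stayed at or below 0.493 and 0.0529 FPKM in all 12 libraries and Serpina3k was at 0. The values of Apoa1, Apoa2, Fgb and Tat, also in the list, are not given here. Of 5 endothelial markers, 1 was called lower after UUO and none after UIRI, with median log2 fold changes of -0.50 and -0.28. Of 3 tested distal convoluted tubule markers, 1 was called lower after UUO, and none of 4 was called after UIRI. None of 4 podocyte markers was called in either model (medians -0.23 and -0.19). The part of these cell types in the results was not tested.

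**Figure D5:**
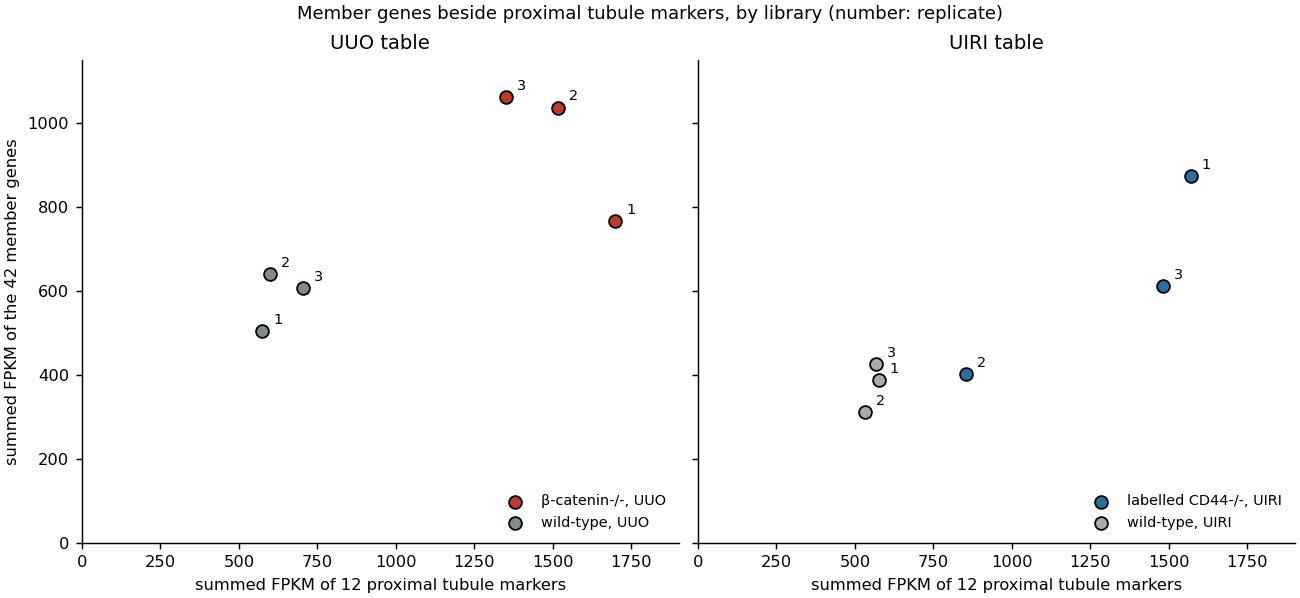
Summed FPKM of the 42 genes against summed FPKM of 12 proximal tubule markers, with 1 numbered point per library, for the UUO table (left) and the UIRI table (right). Knockout libraries lie to the right of wild-type libraries in both panels, and CD44-/- replicate 2 (853 FPKM of markers) lies nearest to the wild-type libraries.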

How the data were processed

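Total kidney RNA of 12 mice was sequenced. The authors aligned reads with HISAT2 2.0.5 (GRCm38/mm10), obtained gene counts from featureCounts 1.5.0-p3, calculated FPKM and compared groups with DESeq2 1.20.0. The strand and multi-overlap settings are not given in the sources used here. The deposited FPKM values come in 2 tables of 6 libraries, whose wild-type columns were assigned by the knockout in the same table. FPKM times gene length gave whole reads for 100% of values (within 0.01 read), with a depth term equal to the median-of-ratios size factor of each table, so tables were scaled separately.

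Knockout and wild-type were compared with limma 3.58.1 in R 4.3.3 (lmFit, eBayes with trend) on log2(FPKM + 1), without a replicate block, for genes whose mean reached 0.5 FPKM. The script was tested on reads simulated with the same spread for every gene (dispersion 0.03). That test does not speak to genes with a wider spread between mice. The summed Ugt1a locus was tested with an exact permutation test in SciPy 1.17.1. Alternatives were a pseudocount of 0.1, no filter, a 1 FPKM filter, TPM, voom with TMM on the recovered reads, no trend, a replicate block, and each library left out. Exons came from GENCODE M21, promoters from RefSeq (GRCm38.p6).

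The genes and lists were chosen with earlier results of these data known. Per-library values are given for genes called in either table and for the 6 most abundant, with others of the set added after their values were seen. Of each other list up to 4 called genes with the smallest p are named, apart from results not reported here. Errors after ± are limma's standard errors of a group difference, with each gene's variance moderated across all genes. They rest on the spread between mice, which includes counting error.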

Additional observations from a re-analysis of the deposited data

How the results depend on the processing

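Calls after UIRI depended on single libraries and on the fit, more than those after UUO. Leaving out each library gave 1 to 5 called genes of the set after UUO and 0 to 6 after UIRI, and 228 to 2449 and 1 to 2180 over all genes. With no level filter the counts were 2 of the set and 473 of all genes after UUO, and 0 and 63 after UIRI, as more genes were tested. With voom on the recovered reads they were 5 of the set and 2252 of all genes after UUO, and 4 of the set and 1680 of all genes after UIRI. Deviations of same-numbered libraries correlated at 0.08, 0.20 and 0.04 after UUO and at -0.14, -0.03 and -0.03 after UIRI, so the numbers were not treated as pairs. With a replicate block the UUO counts were 3 and 1667 and the UIRI counts 0 and 0, where the block also takes residual degrees of freedom. The 3 were Ugt3a1, Ugt3a2 and Sult1d1 (adjusted p = 0.0269), and Ugt1a7c was lost (0.0694). Ugt3a2 passed in all 13 alternatives after UUO (adjusted p = 0.00421 to 0.0478), Ugt3a1 in 12 and Ugt1a7c in 6. After UIRI, Ugt1a7c and Sult5a1 each passed in 6 of 13. The Ugt1a locus log2 ratio stayed at 1.07 to 1.61 after UUO and 1.52 to 1.94 after UIRI without each library. Without each library in turn, the log2 fold change of Ugt2b37 after UIRI ran between -0.39 and 0.21 and that of Sult5a1 after UUO between -0.019 and 0.30, so both changed sign, and neither was called there. The cause was not tested.

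With 3 mice a group, moderate differences in genes with wide spread between mice, such as Sult1d1, lie near the limit of the test. Sult1e1 rested on 3 to 41 reads per library.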
